A study of Mus musculus with 32 samples.

Results

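The mouse cell line UB/OC-1 was cultured in a pair of separate experiments, called A and B, and both were sampled for RNA at days 0, 2, 4 and 9. The comparison described here sets each sample of experiment A against the sample of experiment B from the same day, and covers 16 of the 32 samples of the series, 8 from A and 8 from B. The 8 samples of an experiment are 4 days measured on each of 2 oligonucleotide array designs, a and b, so that each design gives 4 pairs and was analysed in its own table. The members were taken by a rule on the sample titles that uses no measured value, although the comparison itself was proposed with earlier results of these data known. The other 16 samples are further days of experiment A, which B did not cover. They did not enter the main fit and are set beside the calls. Their negative values did enter the background floor of each design, described below.

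UB/OC-1 is a conditionally immortal mouse line that was derived from the organ of Corti, the hearing organ, during its development. Day 0 is the undifferentiated culture at 33 °C in both experiments, and days 2, 4 and 9 are cultures kept at 39 °C, which the labels call differentiating conditions. No other treatment or genotype is given, and the labels name each array of B a replica of the array of A from the same day. RNA was measured on 1 array per experiment, day and design, so that the days stand as the replicates, and p-values measure the spread of the A minus B difference over 4 days in these samples alone. All arrays of a group came from 1 experiment, so that the culture run and the run of RNA preparation, hybridisation and scanning cannot be told apart.

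Lines of this kind carry a temperature-sensitive form of the SV40 large T antigen, which binds p53 and the retinoblastoma protein and drives division at the permissive temperature. At the higher temperature the antigen is degraded, the cells leave the cell cycle and can take up features of their tissue of origin. Cultures of 1 line that are grown apart share a genotype but may differ in density, passage, serum and handling, and genes of growth factor signalling, matrix, protein folding and the cell cycle are known to respond to such conditions.

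Intensities were used as deposited, on a linear scale on which values near background can be negative. The 8 arrays of A and the 8 of B had alike trimmed means (between 300.4 and 300.8 on all 16), medians (75 to 137 in A and 60 to 144 in B) and shares of probe sets above the floor (34.9% to 49.5% in A and 30.9% to 50.5% in B). The floor, below which a value was not told from noise, was 140 on design a and 198 on design b. Both ends of the arrays differed. On design b, 32.05% to 33.39% of values were negative in A and 28.94% to 29.51% in B, with no overlap. On design a, the shares were 21.65% to 25.97% in A and 18.41% to 22.41% in B, with overlap. The floor of a design was the same for A and B, and the effect of this on differences near the floor was not tested. The bright end differed as well. The highest intensity was 21439 to 63467 on the arrays of A and 7985 to 13801 on those of B, with no overlap. The array maker's control probe set for the middle of 18S ribosomal RNA read 11442 to 27780 in A and 104 to 1092 in B, whereas that for the 5′ part read 1469 to 3420 in A and 1645 to 4244 in B. The 3′ to 5′ ratio of the Gapdh controls, a sign of RNA quality and labelling, was 0.994 to 1.67 in A and 0.759 to 0.889 in B. Values after quantile normalization, which gives all 8 arrays of a design 1 distribution, are therefore set beside the results below.

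Of 6838 probe sets that were above the floor on at least 2 of the 8 arrays of their design, 1361 differed between the experiments at an adjusted p under 0.05 in limma's paired fit, which is 19.9% of those tested (2469 at an unadjusted p under 0.05). In all, 760 were higher in A (11.1%) and 601 were lower in A (8.79%), and the median fold of the called probe sets was 2.03. With 1 gene symbol, 453 called probe sets were higher in A and 382 lower. After quantile normalization 646 were higher in A (9.48%) and 693 lower (10.2%), and 1187 of the 1361 calls were made again in the same direction. The intensities of all 4 arrays of A lay above all 4 of B for 768 probe sets (11.2%) and below them for 557 (8.15%). A difference of at least 2-fold with 1 sign on each of the 4 days was found for 77 probe sets higher in A (1.13%) and 81 lower in A (1.18%). The count of calls changed when a single day was left out: it was 538 without day 0, 765 without day 2, 663 without day 4 and 1996 without day 9. These fits have fewer pairs, so that a lost call can reflect the smaller number of pairs as well as the day. Without the pairing by day it was 660, and 653 of those are among the 1361.

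The further days of experiment A did not enter the fit, though their negative values helped to set the floor. All 8 of them lay beyond the whole range of the 4 arrays of B, on the same side, for 460 of the 760 probe sets higher in A (60.5%) and 348 of the 601 lower in A (57.9%). Among the 5477 probe sets that were not called the same held for 6.41%. These arrays share the culture run of A and are set against the same 4 arrays of B that entered the calls. Part of this therefore follows from how the calls were made. It is given as a description and not as independent support.

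The difference between the experiments changed in size over the days. Over all probe sets tested, the standard deviation of the A minus B difference in log2 intensity was 0.85 at day 0, 0.90 at day 2, 0.65 at day 4 and 0.68 at day 9. For comparison, the change from day 0 to day 9 had a standard deviation of 0.93 in A and 0.87 in B. The difference between runs was of about that size at days 0 and 2 and smaller at days 4 and 9. Each of these values compares single arrays, so that array noise is part of all of them. Across probe sets, the differences correlated between days with Pearson's r of 0.711 for days 0 and 2, 0.618 for days 0 and 4, 0.608 for days 2 and 4 and 0.599 for days 4 and 9. With day 9 the correlations were 0.358 for day 0 and 0.329 for day 2. Each difference uses arrays of its own, but all share an experiment and a set of probes, and probe sets are not independent replicates. The median difference of the probe sets called higher in A was 1.18 at day 0, 1.15 at day 2, 0.92 at day 4 and 0.78 at day 9, and day 9 was the smallest of the 4 for 347 of 760. Among those called lower in A the medians were -1.08, -1.16, -0.99 and -0.89 in the same order.

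Whether the difference between the experiments depended on temperature was tested as the day 0 difference against the mean of days 2, 4 and 9. No probe set passed (0 of 6838, 0%), with a smallest adjusted p of 0.953 in limma's fit, and 317 had an unadjusted p under 0.05, which is 4.64%. This test had 2 residual degrees of freedom before moderation, so that a p above the threshold does not show equal differences. The lysosomal enzyme gene Gaa was among those with the smallest p: it read 1405, 1500, 1869 and 2065 in A at days 0, 2, 4 and 9 and 41, 691, 930 and 1251 in B. Its level in B rose from below the floor at day 0 towards that of A, while A was above B on each day. Wdr45b, of the WD-repeat family that acts in autophagy, went the other way at day 0, with 270, 1056, 693 and 778 in A and 1115, 983, 978 and 926 in B, and the groups overlapped at the later days.

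**Figure D1:**
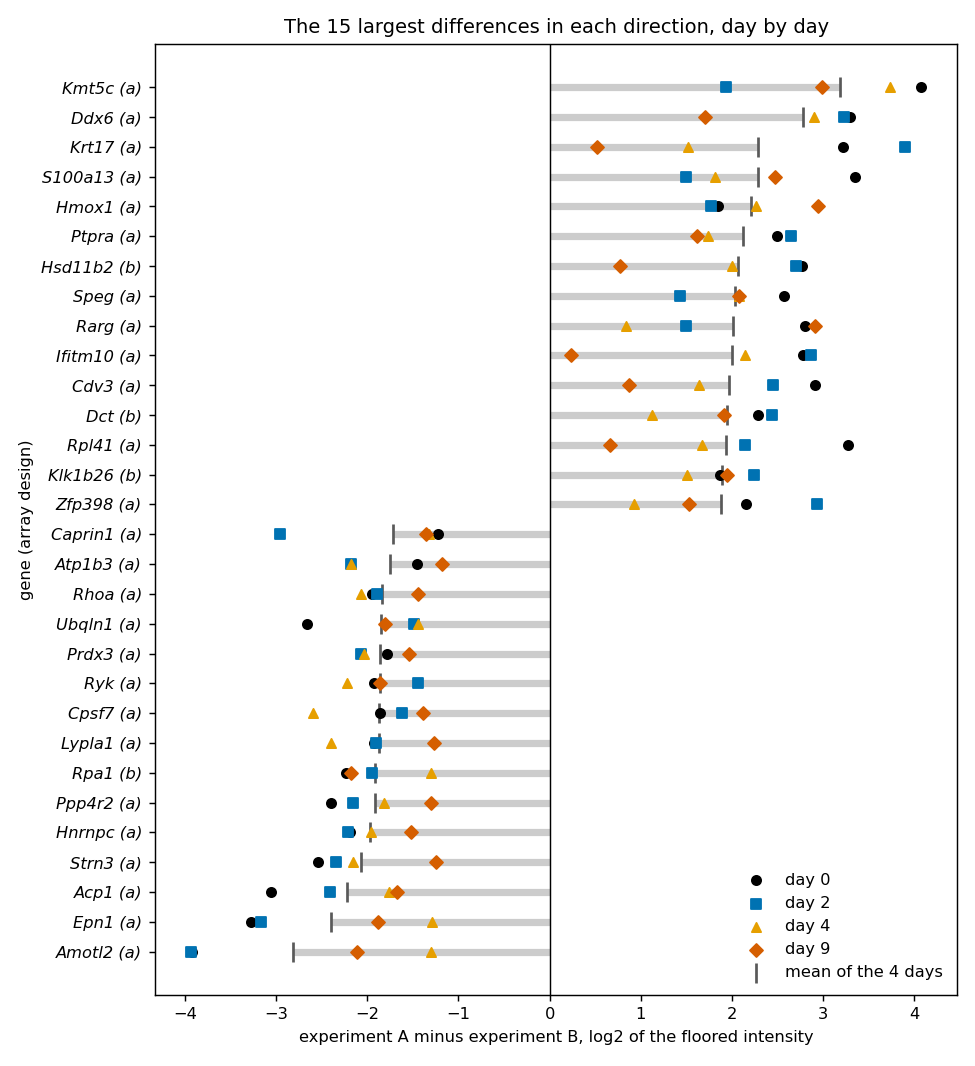
Difference between experiments A and B (horizontal axis, log2 of the floored intensity) for the 15 genes with the largest difference in each direction, with the array design in parentheses. Each gene has 1 point per day and a grey bar to the mean of the 4 days. All 4 points of each gene lie on 1 side of 0 because the rule that chose the genes required it. For 7 of the 15 genes higher in A and 9 of the 15 lower in A the day 9 point is the closest to 0.

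The largest difference in favour of A was that of Kmt5c, a histone H4 lysine methyltransferase of heterochromatin. Its intensity in A was 2891, 1920, 1853 and 1111 at days 0, 2, 4 and 9, against 172, 504, 75 and -327 in B. Every array of A was above every array of B. The difference of 3.18 ± 0.34 (standard error, log2, n = 4 pairs) is 9.06-fold, a low estimate because 2 arrays of B were at the floor (adjusted p = 0.00295). A second probe set of Kmt5c on the same design differed by -0.02 and was not called, so that the difference belongs to 1 of its probe sets. Here and below, a fold is a low estimate wherever any array of the dimmer experiment was under the floor. Ddx6, an RNA helicase of processing bodies, read 3479, 2619, 1877 and 2045 in A and 355, 279, 252 and 626 in B, which is 6.88-fold (adjusted p = 0.00295). Another probe set of Ddx6 went the opposite way (-1.17 ± 0.28, adjusted p = 0.02, and 0.065 without day 0), so that no direction can be given for this gene.

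Hmox1, the inducible haem oxygenase that breaks down haem and responds to oxidative stress, was 505, 477, 672 and 1114 in A and 129, 114, 92 and 145 in B. The level in A was highest at day 9 while B was at or just above the floor throughout, and the fold of 4.61 is a low estimate (2.21 ± 0.29, adjusted p = 0.0034). Speg, a protein kinase of the myosin light chain kinase family, was level in A at 834, 817, 973 and 838 and read -4, 304, 231 and 199 in B. No arrays overlapped, and the fold was 4.11 (adjusted p = 0.00334), whereas a second probe set near the floor differed by 0.00. S100a13, a calcium-binding protein, read 1430, 1048, 899 and 1115 in A against 128, 372, 256 and 201 in B (4.87-fold, adjusted p = 0.00375), with a second probe set not called (0.14).

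Ptpra, a receptor-type tyrosine phosphatase, was 788, 877, 468 and 428 in A and at the floor on all 4 arrays of B, so that A was at least 4.36-fold higher (adjusted p = 0.00359). By the same measure Cdv3 was at least 3.91-fold higher and the zinc finger gene Zfp398 at least 3.69-fold higher in A. Dct, which encodes an enzyme of melanin synthesis, read 1357, 2199, 769 and 2198 in A and 278, 405, 353 and 584 in B (3.84-fold, adjusted p = 0.00334). Rarg, the gamma receptor for retinoic acid, read 975, 1035, 796 and 1055 in A and 43, 367, 447 and 128 in B (4.03-fold, a low estimate with 2 arrays of B at the floor, adjusted p = 0.00748), with another probe set at 0.57 that was not called. Hsd11b2, whose enzyme inactivates glucocorticoids, was 1351, 1283, 794 and 791 in A and 95, 63, -57 and 463 in B. Only its day 9 array in B stood above the floor, so that the fold of 4.17 is a low estimate (adjusted p = 0.00493).

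Krt17, an epithelial keratin, varied most over the days in this group. It read 1300, 2087, 401 and 514 in A and 52, -13, 98 and 358 in B, so that the difference was 3.22, 3.9, 1.52 and 0.52 at days 0, 2, 4 and 9. Its call (adjusted p = 0.0149) was lost without day 0 (adjusted p = 0.0624) and without day 2 (adjusted p = 0.0501), and a second probe set differed by -0.12. Ifitm10, of the interferon-induced transmembrane family, was 957, 1033, 821 and 650 in A and 31, 142, 186 and 553 in B, with a difference of 2.00 ± 0.41. Its call (adjusted p = 0.0126) was lost without day 0 (adjusted p = 0.0530). Klk1b26, of a kallikrein family with near-identical members that makes the assignment uncertain, had a fold of 3.71, a low estimate with 3 arrays of B at the floor. Rpl41, a ribosomal protein gene, read 63467, 32330, 22143 and 21809 in A and 6573, 7311, 6937 and 13801 in B. On design a it gave the highest intensity of each matched array of A, and in B only that of day 9. Its difference of 1.94 became 0.98 after quantile normalization, whereas those of the other 14 genes in this group moved by at most 0.11.

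All 15 genes with the largest differences in this direction passed after quantile normalization too. For 10 of the 15 all 8 further arrays of A lay above all of B. Of the 7 genes with another probe set tested, 0 had a second call in the same direction, 1 had an opposite one, and 6 had none. The difference of these genes between the experiments therefore rests on 1 probe set each.

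Amotl2, an angiomotin-like scaffold protein of cell junctions, had the largest difference in favour of B. It was -84, 147, 1076 and 435 in A at days 0, 2, 4 and 9 and 2113, 2240, 2646 and 1880 in B. The level in B was steady, that in A stood at or near the floor on the first days and higher later, and the groups did not overlap. The difference was -2.81 ± 0.42 (7.03-fold, a low estimate because 1 array of A was at the floor, adjusted p = 0.00424). Epn1, an endocytic adaptor, read -140, -111, 568 and 517 in A and 1350, 1251, 1390 and 1909 in B (-2.40 ± 0.34, adjusted p = 0.00387). A second probe set of Epn1 was called the opposite way at 1.27 ± 0.22, and Acp1, a low-molecular-weight protein tyrosine phosphatase, was split in the same manner, with -2.22 ± 0.30 on design a and 1.75 ± 0.23 on design b. Probe sets named _f_at, shared within a gene family, were used for Epn1, Hnrnpc and Cpsf7 here, so that the gene behind these is uncertain.

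Strn3, a scaffold subunit of protein phosphatase 2A complexes, was 20, 64, 222 and 288 in A and 817, 709, 988 and 683 in B (4.20-fold, a low estimate with 2 arrays of A at the floor, adjusted p = 0.00369). Ppp4r2, a regulatory subunit of protein phosphatase 4, read 109, 117, 181 and 191 in A and 736, 625, 637 and 469 in B (3.77-fold, again with 2 arrays of A at the floor, adjusted p = 0.00387). Rpa1, the large subunit of the single-strand DNA binding complex of replication and repair, was 205, 264, 505 and 128 in A and 965, 1017, 1243 and 895 in B (3.77-fold, adjusted p = 0.00331). For each of these 3 the lowest array of B exceeded the highest of A. Prdx3, the mitochondrial peroxiredoxin that removes hydrogen peroxide, was 172, 29, 160 and 232 in A and 594, 589, 657 and 676 in B (3.63-fold, adjusted p = 0.00359). Ryk, a receptor for Wnt ligands, was 137, 238, 154 and 206 in A and 530, 648, 721 and 749 in B (3.64-fold, adjusted p = 0.00366). In B both varied little over the days, and no array of A reached the lowest of B.

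Rhoa, the small GTPase that organises actin stress fibres, was at the floor on all 4 arrays of A and read 541, 519, 588 and 380 in B, at least 3.57-fold higher in B (adjusted p = 0.00375). On the same measure Ubqln1, which carries ubiquitinated proteins to the proteasome, was at least 3.60-fold higher in B, and a probe set of it on design b was called in the same direction (-1.22 ± 0.25, adjusted p = 0.0126, and 0.061 without day 0). Hnrnpc, a pre-mRNA binding protein, was at least 3.91-fold higher in B by 1 probe set, while its 3 others differed by -0.31, -0.33 and -0.67 and were not called. The remaining genes of this group were Lypla1, a depalmitoylating enzyme (3.66-fold), Cpsf7, of the pre-mRNA cleavage complex (3.65-fold, a low estimate with 3 arrays of A at the floor, and another probe set not called at -0.10), Atp1b3, a beta subunit of the sodium pump (3.35-fold), and Caprin1, an RNA-binding protein of stress granules (3.28-fold). All 15 genes had a difference of at least 2-fold on each day, against 8 of the 15 largest in the other direction, and all 15 kept their direction and their call after quantile normalization. For all 15, the 8 further arrays of A lay below the 4 of B.

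**Figure D2:**
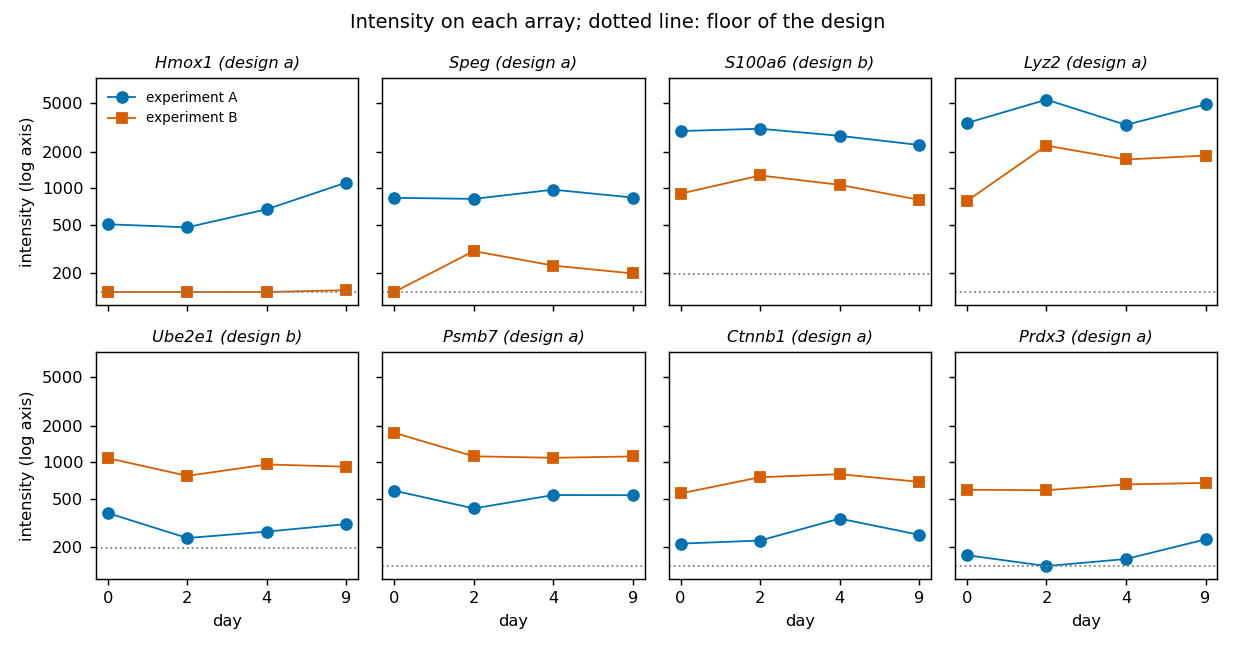
Intensity (vertical, log axis, values below the floor drawn at the floor) on each array against day for 4 genes higher in A (top row) and 4 lower in A (bottom row), with A in blue circles and B in orange squares. In each of the 8 panels the lines of the experiments do not cross, and Hmox1 in B lies at the floor or just above it.

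The stretch of 250 bases before the transcription start was taken from RefSeq (build GRCm38.p6) for the named genes with exactly 1 such window and no probe sets called in opposite directions, 7 higher in A and 10 lower in A. The windows of the highest-ranked pair in each direction are shown because their CG dinucleotides, the site of DNA methylation in mammals, were counted in both directions, and these are in capitals. Kmt5c lies at chr7:4739877-4740126 and S100a13 at chr3:90514185-90514434, both on the plus strand, Amotl2 at chr9:102717554-102717803 on the plus strand and Strn3 at chr12:51691915-51692164 on the minus strand, all upstream of the first exon and written 5′ to 3′ along the gene.
Kmt5c: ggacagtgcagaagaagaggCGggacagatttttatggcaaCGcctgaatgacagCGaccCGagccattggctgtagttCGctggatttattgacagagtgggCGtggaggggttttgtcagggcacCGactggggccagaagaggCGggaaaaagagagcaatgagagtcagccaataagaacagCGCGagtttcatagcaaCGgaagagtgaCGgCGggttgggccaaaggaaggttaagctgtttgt
S100a13: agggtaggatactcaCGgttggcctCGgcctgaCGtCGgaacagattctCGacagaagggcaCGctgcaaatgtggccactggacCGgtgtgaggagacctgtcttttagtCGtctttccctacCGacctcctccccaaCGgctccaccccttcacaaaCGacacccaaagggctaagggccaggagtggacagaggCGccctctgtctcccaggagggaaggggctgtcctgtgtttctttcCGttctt
Amotl2: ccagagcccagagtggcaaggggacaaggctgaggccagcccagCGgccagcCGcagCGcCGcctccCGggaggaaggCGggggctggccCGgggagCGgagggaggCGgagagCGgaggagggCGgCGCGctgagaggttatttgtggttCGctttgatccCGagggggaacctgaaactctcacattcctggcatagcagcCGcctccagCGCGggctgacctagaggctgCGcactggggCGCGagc
Strn3: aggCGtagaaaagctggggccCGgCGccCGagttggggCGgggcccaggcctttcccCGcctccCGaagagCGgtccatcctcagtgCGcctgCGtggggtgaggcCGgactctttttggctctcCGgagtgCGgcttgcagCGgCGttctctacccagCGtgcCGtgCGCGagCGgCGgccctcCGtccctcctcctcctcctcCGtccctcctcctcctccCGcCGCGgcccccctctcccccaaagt
The motif CG occurred 13 times in the window of Kmt5c, 13 times in that of S100a13, 21 times in that of Amotl2 and 26 times in that of Strn3. Over the named genes the median was 13 for those higher in A (1 in Klk1b26 to 25 in Ptpra) and 26 for those lower in A (9 in Prdx3 to 35 in Ppp4r2). Over all called genes with 1 window, the median count was 14 for 262 genes higher in A, with quartiles of 7 and 20, and 19 for 246 genes lower in A, with quartiles of 14 and 26. Genes tested but not called had a median of 16 (1933 windows), and the median GC content was 59.4% higher in A, 62.2% lower in A and 59.6% among those not called. At least 1 CG is present in 92.1% of all 32851 windows of this length, 98.5% of those of genes higher in A and 99.6% of those lower in A. These letters read the same on both strands, and methylation was not measured.

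Genes with several probe sets show how far a call is shared. Of 565 genes with at least 2 probe sets tested, 349 had none called, 170 had 1 called, 25 had 2 or more called that were all higher in A, 14 had 2 or more that were all lower in A, and 7 had calls in opposite directions. Those higher in A include Actb, Actn4 and Myh9 of the actin cytoskeleton, the annexin Anxa2, the matrix protein gene Sparc, the laminin receptor subunit Itga3, the G protein subunits Gnai2 and Gnas, the imprinted transcript H19 and the ribosomal protein genes Rplp0 and Rpl6. After quantile normalization 14 of the 25 still had 2 or more calls, among them Actb, Actn4, Itga3, Gnai2, Gnas and H19. Myh9, Anxa2, Sparc, Rplp0 and Rpl6 did not. Those lower in A include Ubqln1, the calnexin gene Canx, the nucleosome-binding protein gene Hmgn2, the ATP synthase subunit gene Atp5a1, the antiproliferative gene Btg1, the splicing factor gene Srsf6 and the histone chaperone family member Anp32a, and all 14 had 2 or more calls after quantile normalization. The 7 split genes were Acp1, Ddx6, Ddx50, Epn1, Gorasp2, Mcrip1 and Usp33. Probe sets of the shared _f_at kind made up 22.5% of those called higher in A, 25.3% of those called lower and 15.1% of those not called.

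Designs a and b were hybridised separately and hold different probe sets, which gave 196 genes measured on both. Their differences had the same sign on both designs for 131 genes (66.8%) and a Pearson's r of 0.321 across genes. Of 20 genes called on both designs, 19 went in 1 direction: Gnai2, which couples receptors to inhibition of adenylate cyclase, differed by 1.85 and 1.59 on designs a and b, S100a6 by 1.36 and 1.46, Rab18, a GTPase of lipid droplets, by -1.41 and -0.73 (the mean of its 2 probe sets on design b), and Ubqln1 by -1.85 and -1.22. The exception was Acp1. For Gnai2, Gnas, Mfge8, Csk, Anxa2, Tuba1a, Rplp0, Eef1a1, Atp5a1 and Btg1 the called probe sets were of the shared _f_at kind on both designs. The gene behind these is therefore uncertain. After quantile normalization 14 of the 19 still had a call on both designs. The 5 that did not were S100a6 (-0.02 on design a), Anxa2 (0.08 and 0.05), Tuba1a, Rplp0 and Eef1a1, all higher in A as deposited. The labels give both designs the same experiment and day, so that this compares probe sets and hybridisations and adds no further experiment.

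The balance of the calls went with signal level at the bright end, and the cause was not tested. The 160 probe sets with a mean log2 level of 12 to 13 had a median difference of 0.31, and 49 of them were called higher in A and 1 lower. For the 79 above 13 the median was 0.82, with 66 called higher and 0 lower in A. After quantile normalization these medians were -0.04 and 0.08. From a level of 8 to 12 the medians lay between -0.01 and 0.07, and 595 probe sets were called higher and 517 lower in A. For bright genes and lists the values after quantile normalization are therefore given below where they change a call or a direction.

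**Figure D3:**
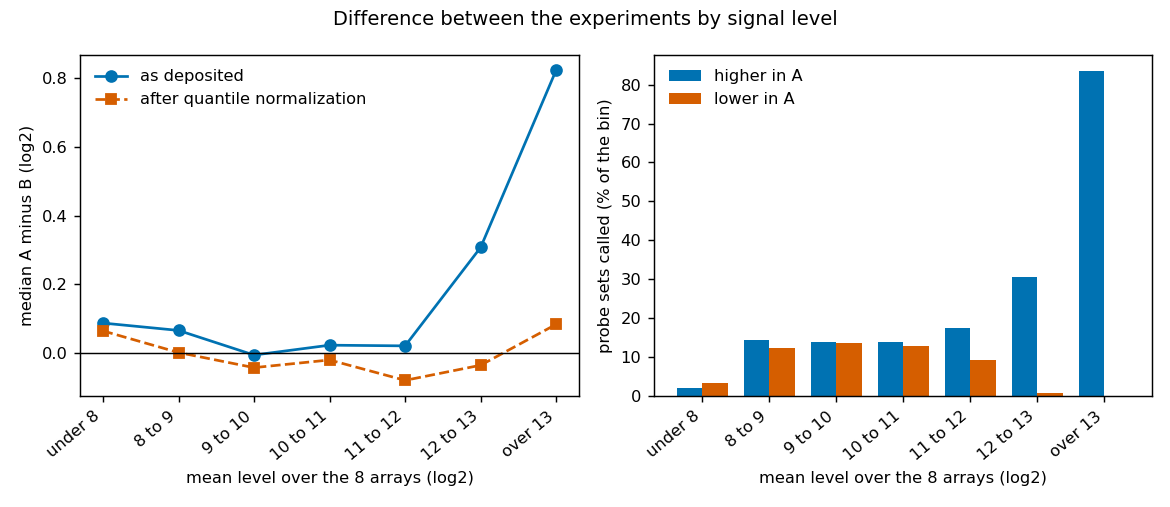
Left, median A minus B difference (log2) by mean level over the 8 arrays, for the values as deposited (blue) and after quantile normalization (orange). Right, share of the probe sets of each level called higher (blue) or lower (orange) in A. The median is 0.82 above a level of 13 as deposited and 0.08 after normalization.

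Gene lists were described by their calls, beside 11.1% and 8.79% over all probe sets tested and a median difference of 0.07 over all of them (0.02 after quantile normalization). Of the 168 called probe sets on the lists, 50 were called without each of the 4 days in turn, while 100 were lost without day 0, 74 without day 2, 89 without day 4 and 17 without day 9. The days without which a call was lost are given beside the leading members, and the range of each leading list's count without 1 day beside the list. With fewer pairs in such a fit, a lost call need not mean a smaller difference. That of Tcp1 was -1.27 with all days and -1.36 without day 0, where its call was lost. List members given by their difference alone were chosen after their values were seen. The list of insulin-like growth factor (IGF) and insulin signalling had 6 of 17 probe sets called higher in A and 0 lower, with a median of 0.64, and the same counts after quantile normalization. The count higher in A was 2 without day 0, 4 without day 2, 3 without day 4 and 9 without day 9. The median difference of the list was 0.81, 0.50, 0.32 and 0 at days 0, 2, 4 and 9, so that it was not steady over the days. Of the 6 calls, 2 were probe sets of H19. Igfbp7, a secreted IGF-binding protein, read 3288, 4982, 2837 and 838 in A and 937, 2566, 1258 and 146 in B. It was highest at day 2 and lowest at day 9 in both experiments, with A higher on each day (1.62 ± 0.26, 3.06-fold, adjusted p = 0.00508). Igfbp1, which binds IGFs in the circulation, was 443, 884, 421 and 764 in A and 161, 224, 154 and 395 in B (2.45-fold, adjusted p = 0.0096), while its 2 other probe sets differed by 0.90 and 0.64 and were not called.

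Igf2, the fetal growth factor, and H19, the noncoding transcript imprinted beside it, were both higher in A. Igf2 read 891, 1945, 1875 and 722 in A and 250, 1237, 554 and 528 in B, with its highest level at day 2 in B and at days 2 and 4 in A (2.26-fold, adjusted p = 0.0193). H19 read 788, 736, 631 and 773 in A and 238, 297, 335 and 552 in B (2.16-fold, adjusted p = 0.0162), and its second probe set was called as well (0.95 ± 0.27, adjusted p = 0.0371). All 3 probe sets are of the shared _f_at kind. The call of Igf2 was lost without day 0 (adjusted p = 0.0727) and without day 4 (adjusted p = 0.0722), and that of H19 without day 0 (adjusted p = 0.0789). Foxo3, a transcription factor restrained by insulin signalling, completed the 6, with a difference of 0.71 that was not called without day 0, 2 or 4 (adjusted p = 0.0883, 0.053 and 0.13). The second set of H19 was not called without day 0, 2 or 4 either (adjusted p = 0.123, 0.125 and 0.0548).

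Extracellular matrix genes had 9 of 47 called higher in A and 2 lower, with a median of 0.21 (8 and 4 after quantile normalization, median 0.17), and the count higher was 5 without day 0, 2 or 4 and 11 without day 9. Col6a2, a chain of type VI collagen, rose over the days in both experiments, from 351 to 1279, 2269 and 3835 in A and from 103 to 623, 1028 and 1062 in B (2.32-fold, adjusted p = 0.00696). Fbln1, a fibulin of basement membranes, was 450, 405, 359 and 445 in A and at the floor on all 4 arrays of B, at least 2.09-fold higher in A (adjusted p = 0.0115, and 0.0521 without day 0). Dcn, the collagen-binding proteoglycan decorin, read 89, 2281, 7459 and 16368 in A and 61, 1218, 3486 and 5146 in B, at the floor in both at day 0 and higher in A afterwards. Its difference of 0.92 ± 0.24 (adjusted p = 0.0290) was lost without day 2 (adjusted p = 0.0662) and without day 4 (adjusted p = 0.0702). Thbs1, the matrix protein thrombospondin that serum induces, was lower in A at 1178, 496, 542 and 661 against 1465, 1560, 1152 and 1434 in B (-1.04 ± 0.23, adjusted p = 0.0167, and 0.0503 without day 2).

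Among actin cytoskeleton and contractile genes, 11 of 51 were higher in A and 4 lower, and the median of 0.18 was -0.05 after quantile normalization, with 8 and 6 calls. Without day 0 the counts were 3 and 1, without day 2 they were 7 and 1, and without day 4 they were 4 and 1. Actb, cytoplasmic beta actin, was called by 2 of its 3 probe sets, of which that with the larger difference read 6657, 8100, 4075 and 4159 in A and 1823, 3091, 1518 and 2541 in B (2.55-fold, adjusted p = 0.00405, 1.16 after normalization on the log2 scale). Myh9, nonmuscle myosin heavy chain, was 4195, 3462, 4408 and 4025 in A and 2566, 2246, 1937 and 1917 in B (1.86-fold, adjusted p = 0.008), with a second probe set also called (0.55, and 0.27 and not called after quantile normalization) and another not (-0.11). Actg1, cytoplasmic gamma actin, and Cfl1, the actin-severing protein cofilin, are bright and were higher in A as deposited (0.76 and 0.58), but their differences after quantile normalization were -0.24 and -0.14, which had adjusted p of 0.21 and 0.407. Other probe sets on design a differed by 0.35 for Actg1 and 0.08 for Cfl1 as deposited and by -0.69 and -0.49 after normalization, and the call of Cfl1 as deposited was lost without day 0, 2 or 4 (adjusted p = 0.0909, 0.051 and 0.0778). The 4 lower in A were Pfn1, which binds actin monomers, Rdx, which links actin to the membrane, Lasp1 and Crip2, at -0.60, -0.81, -0.99 and -1.03, and each of these calls was lost without 1 or more of the days. Second probe sets of Pfn1, Lasp1 and Crip2 differed by -0.56, -0.53 and 0.34 and were not called.

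Ribosomal protein genes, whose median level of 12.6 (log2) was the highest of the lists, had 19 of 46 called higher in A and 0 lower, with a median of 0.33. After quantile normalization 4 were higher and 7 lower, with a median of 0.05, so that no direction is given for this list. Rplp0, of the ribosomal stalk, read 18169, 18256, 16508 and 17089 in A and 5915, 9226, 6833 and 8649 in B, a difference of 1.21 that was 0.49 after normalization (adjusted p = 0.00334 and 0.0403). Likewise B2m, the small subunit of class I antigen-presenting molecules, and the ferritin genes Fth1 and Ftl1 differed by 0.98, 0.78 and 0.77 as deposited and by 0.23, 0.22 and -0.10 after normalization.

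On the side of B, histones and high mobility group proteins had the largest share lower in A, 4 of 13 (6 of 13 after quantile normalization, with medians of -0.27 and -0.45). The 4 were Hmgb1, Hmgb2 and 2 shared _f_at probe sets of Hmgn2, described with the cell cycle below, and none was of a histone gene. The 1 call higher in A was that of the histone gene H3f3a, also on a shared probe set (0.65, adjusted p = 0.0236, and 0.0889 without day 4). Of 46 ubiquitin and proteasome probe sets 6 were lower in A and 1 higher, with a median of -0.25 (10 and 1 after quantile normalization, median -0.23), and the count lower was 3 without day 0, 5 without day 2 or day 4 and 9 without day 9. Ube2e1, a ubiquitin-conjugating enzyme, was 382, 238, 269 and 310 in A and 1081, 773, 959 and 919 in B (3.14-fold, adjusted p = 0.00331). Ube2b, another conjugating enzyme, which acts in DNA repair, read 159, 225, 391 and 209 in A and 356, 682, 858 and 672 in B (2.49-fold, adjusted p = 0.0076). Psmb7, a catalytic subunit of the proteasome, was 584, 417, 537 and 536 in A against 1747, 1119, 1088 and 1116 in B, with the groups wide apart (2.41-fold, adjusted p = 0.00482). The exception was 1 probe set of the ubiquitin-like modifier gene Nedd8, at 0.93, a call lost without day 0, 2 or 4 (adjusted p = 0.11, 0.123 and 0.127), and its 2 other probe sets differed by -0.15 and -0.41.

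The list of endoplasmic reticulum and amino acid stress had 9 of 32 lower in A and 2 higher, with a median of -0.13 (10 and 2 after quantile normalization), and 3 lower without day 0, 5 without day 2 and 4 without day 4. Dnajc3, a cochaperone of the reticulum, rose over the days in both experiments, from 240 to 358, 523 and 757 in A and from 506 to 703, 1321 and 1604 in B. B was above A on each day, at -1.12 ± 0.20 (2.17-fold, adjusted p = 0.0076), though without day 4 the call was lost (adjusted p = 0.0506) and a probe set on design b differed by 0.15. Psat1, an enzyme of serine synthesis, fell after day 0 in both, from 1446 to 544, 522 and 452 in A and from 2553 to 1168, 1009 and 818 in B (1.91-fold, adjusted p = 0.0101). Canx, the lectin chaperone calnexin, was lower in A by 1 probe set on each design (1.99-fold and 1.86-fold), while another differed by 0.81 and was not called. Both calls were lost without day 0 (adjusted p = 0.0653 and 0.114). Atf4, the transcription factor of the amino acid response, Hspa5, the main chaperone of the reticulum, and Herpud1 were lower in A as well, at -0.79, -0.53 and -0.98, and Aars and Calr were higher at 0.80 and 0.56. Each of these 5 calls was lost without 1 or more of the days, and second probe sets of Hspa5 and Aars differed by -0.41 and -0.17 and were not called.

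Heat shock and protein folding genes had 5 of 33 lower in A and 3 higher, with a median of -0.18 (5 and 1 after quantile normalization), and 2 and 0 without day 0. Cct6a, a subunit of the cytosolic chaperonin, was 2359, 338, 451 and 540 in A and 3518, 1709, 1751 and 1239 in B (2.86-fold, adjusted p = 0.00758), and Tcp1, another subunit, 1502, 257, 761 and 600 in A and 2996, 1465, 1144 and 1193 in B (2.41-fold, adjusted p = 0.0191, and 0.0524 without day 0). Both stood at their highest at day 0, and B was higher on each day. Among further subunit genes, Cct5 was lower in A at -0.57 and Cct2 higher at 0.56 (0.33 and not called after quantile normalization), with Cct5 lost without day 0, 2 or 4 and Cct2 without day 0, 4 or 9. Hsp90aa1, the inducible cytosolic HSP90, was called lower in A on design a (-0.91 ± 0.19, adjusted p = 0.0125) and differed by 0.10 on design b. Hspb8, a small heat shock protein, was higher in A (1.08 ± 0.26, adjusted p = 0.0203), which was lost without day 0 (adjusted p = 0.0784) and without day 2 (adjusted p = 0.0666).

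Of 54 probe sets of cell cycle and DNA replication genes 8 were lower in A and 1 higher, with a median of -0.17, and 7 and 1 after quantile normalization. The count lower was 3 without day 0, 2 without day 2, 4 without day 4 and 9 without day 9. Ccne1, the cyclin of entry into S phase, was 841, 189, 159 and 135 in A and 1042, 614, 523 and 534 in B. It was high at day 0 in both experiments and at the floor in A from day 2 on, where B was not (2.29-fold, a low estimate for this reason, adjusted p = 0.0162, and 0.0510 without day 2). Hmgb2, a chromatin protein of dividing cells, was also highest at day 0 in both, with 843, 217, 296 and 251 in A and 1556, 688, 743 and 575 in B (2.41-fold, adjusted p = 0.00631). Mcm3 and Mcm6, of the replicative helicase, Rrm2, of nucleotide synthesis, and Cks1b, which binds cyclin-dependent kinases, were lower in A at -0.85, -1.11, -0.76 and -0.66, and Lig1, the DNA ligase of replication, was higher at 0.96. Each of these 5 calls was lost without 1 or more of the days, and the 3 other probe sets of Rrm2 differed by -0.14, -0.47 and -0.54 and were not called. The high mobility group genes Hmgb1 and Hmgn2, bound to chromatin, were lower in A too (-1.23 ± 0.24 and -1.16 ± 0.18, adjusted p = 0.0102 and 0.00467), and the list of histones and such proteins had 4 of 13 lower and 1 higher, with the count lower at 4 without each day.

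Inhibitors of cyclin-dependent kinases and p53 targets were split, with 3 of 24 higher in A and 4 lower. Cdkn2a, the locus of the p16 and ARF tumour suppressors, was 1225, 1656, 2136 and 1644 in A and 429, 798, 634 and 684 in B, and the groups did not overlap (2.63-fold, adjusted p = 0.00375). Gas6, a ligand of receptor kinases first found in growth arrest, read 1551, 1626, 2089 and 1836 in A and 527, 714, 912 and 1275 in B (2.17-fold, adjusted p = 0.0075). Plk2 and Ei24, which p53 induces, were lower in A at -1.11 and -1.01, with both calls lost without day 4 (adjusted p = 0.0580 and 0.0573) and that of Ei24 also without day 2 (adjusted p = 0.0561). Cdkn1b, the inhibitor p27, was lower in A at -0.90 and Mdm2, which degrades p53, higher at 0.49, each by 1 of 3 probe sets with the others between -0.92 and 0.90 and not called, with Cdkn1b lost without day 0, 2 or 4 and Mdm2 without each day.

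Lists of growth signals and early response genes held calls in both directions. Bmp1, the protease that matures procollagen, was 512, 998, 848 and 563 in A and 199, 246, 272 and 254 in B (2.91-fold, adjusted p = 0.00457), whereas a second probe set differed by -0.67 and was not called. Ctnnb1, beta-catenin, which acts in adhesion and Wnt signalling, was 214, 227, 344 and 253 in A and 554, 753, 798 and 690 in B (2.71-fold, adjusted p = 0.00533). Smad4, which carries TGF-beta signals to the nucleus, and Id2, an inhibitor of basic helix-loop-helix factors, were lower in A at -0.81 and -0.56, both lost without day 0, 2 or 4. In all, 2 of 34 probe sets of this list were higher and 3 lower in A. The immediate early list had 6 of 30 higher and 3 lower: Jund, an AP-1 subunit, was higher by 2 probe sets (1.05 and 0.90), Nr4a1, an orphan nuclear receptor, at least 2.12-fold higher, and Btg1 lower by 2 probe sets (-1.56 and -1.01). The differences of Jund were 0.85 and 0.76 after quantile normalization. The second call of Btg1 was lost without day 2, 4 or 9 (adjusted p = 0.0651, 0.104 and 0.0524). The call of Nr4a1 (adjusted p = 0.0114) was lost without day 0 (adjusted p = 0.0505).

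Sgk1, a kinase gene induced by glucocorticoids and serum, was 242, 94, 124 and 320 in A and 1109, 348, 424 and 622 in B (2.86-fold lower in A, a low estimate with 2 arrays of A at the floor, adjusted p = 0.00843). Per1, a clock gene that glucocorticoids also induce, was higher in A (1.19 ± 0.34, adjusted p = 0.0397), a call lost without day 0 (adjusted p = 0.072), day 2 (0.144) or day 4 (0.121), and its second probe set differed by 0.11. With Rarg, described above, the steroid hormone and retinoid list had 2 of 16 higher and 1 lower. Hif1a, the transcription factor of the low oxygen response, was 132, 734, 285 and 350 in A and 662, 808, 1332 and 1460 in B (3.17-fold lower in A, adjusted p = 0.0141, and 0.0546 without day 0). The list of glycolysis and low oxygen genes had 6 of 31 higher and 3 lower, and 2 and 3 after quantile normalization.

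Lysosomal genes numbered 5 of 38 higher and 3 lower in A. Acp2, lysosomal acid phosphatase, was 579, 1133, 687 and 713 in A and 131, 115, 254 and 227 in B (3.45-fold, a low estimate with 2 arrays of B at the floor, adjusted p = 0.0038), and with Gaa (1.54) and Arsa (0.95), which degrade glycogen and sulphatides, made up the enzymes higher in A (Arsa with adjusted p = 0.0978 without day 0 and 0.0506 without day 2). Lamp1 and Lamp2, of the lysosomal membrane, and Atp6v1a, of the proton pump, were lower in A at -0.57, -0.88 and -0.85, with the call of Lamp1 lost without day 0, 4 or 9, that of Lamp2 without day 2 (adjusted p = 0.0539) or day 4 (adjusted p = 0.0962) and that of Atp6v1a without day 0, 2 or 4 (adjusted p = 0.0563, 0.0708 and 0.0678). Oxidative phosphorylation had 3 of 41 higher and 5 lower, 1 and 8 after quantile normalization, and 0 and 1 without day 0: Atp5a1, of ATP synthase, and Ndufv2, of complex I, were lower in A (-0.88 ± 0.17 and -0.83 ± 0.19), Ndufv2 with an adjusted p of 0.0183 that was 0.0748 without day 0. The 3 higher in A were Cox4i1, Cox8a and Sdhb, at 0.69, 0.64 and 0.57, and each call was lost without day 0 and without day 4. After quantile normalization Cox4i1 and Cox8a differed by 0.22 and 0.21 and were not called. The interferon and antigen presentation list held 4 higher and 2 lower of its 34 probe sets, and 1 and 2 after normalization. Gbp7, an interferon-induced GTPase, was 925, 130, 66 and 135 in A and 2774, 276, 275 and 367 in B (2.35-fold lower in A, a low estimate with 3 arrays of A at the floor, adjusted p = 0.0122, and 0.0539 without day 0). Cholesterol and fatty acid synthesis had 0 of 14 higher and 2 lower, Idi1 and Me1, at -0.89 and -0.82, whose calls were each lost without day 0, 2 or 4 (adjusted p from 0.079 to 0.191), and the list of metallothioneins, iron and antioxidant genes had 4 of 37 higher and 1 lower, the latter Prdx3. After quantile normalization it had 2 higher and 4 lower (medians of 0.01 and -0.14), so that no direction is given for it.

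**Figure D4:**
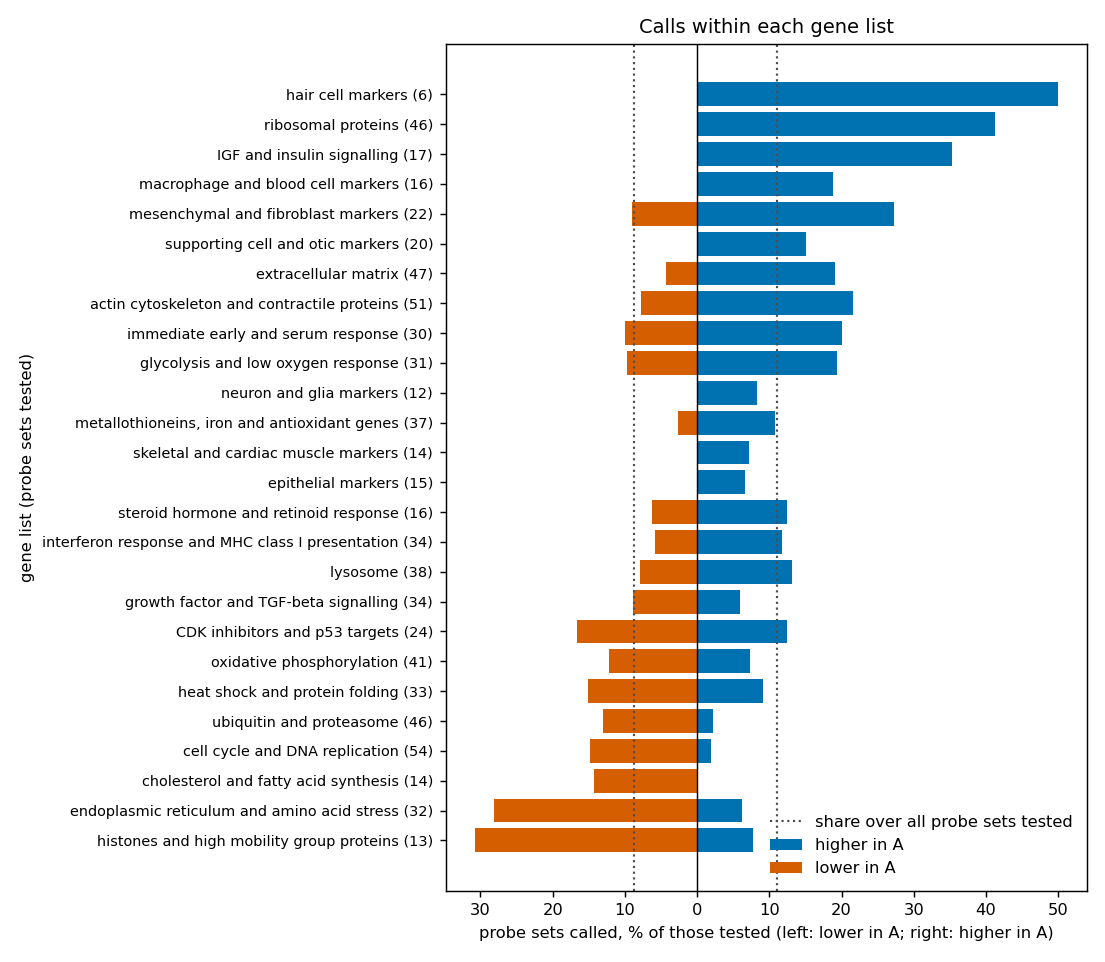
Share of the probe sets of each gene list called higher in A (right, blue) or lower in A (left, orange), for lists with at least 6 probe sets tested (number in parentheses), with dotted lines at the shares over all probe sets, 11.1% and 8.79%. Ribosomal proteins, at 19 of 46, and IGF and insulin signalling, at 6 of 17, lie far to the right, and the first of these does not do so after quantile normalization.

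Markers were used to compare the cells of the experiments. In bulk RNA, fewer cells of a type and less RNA per cell cannot be told apart. Of hair cell markers, 6 of the 10 genes on the arrays were tested and 3 were called, all higher in A: Calb2, the calcium buffer calretinin, read 569, 657, 683 and 742 in A and 290, 268, 395 and 490 in B (1.88-fold, adjusted p = 0.0197). Pvalb, parvalbumin, differed by 0.94 ± 0.23 and Myo1c, the adaptation motor of hair bundles, by 0.69 ± 0.17. The calls of all 3 were lost without day 0, 2 or 4 in turn, with adjusted p between 0.0518 and 0.0901. The 3 other genes tested were not called. The share of all probe sets called higher in A was 11.1%. The median difference of the list was 0.65, 1.17, 0.42 and -0.09 at days 0, 2, 4 and 9, so that the list as a whole was not higher in A at day 9. Atoh1 and Gfi1, which define hair cells, were not above the floor on 2 or more of the 8 arrays of their design, and neither were Calb1 and Ocm, so that they did not pass the filter for the test. The summed intensity of the hair cell list was 3653 to 5569 over the 4 days of A and 2465 to 3105 over those of B. The ranges were 3611 to 5098 and 2647 to 3031 after quantile normalization.

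Supporting cell and otic markers had 3 of 20 probe sets higher in A and 0 lower. Gata2, a transcription factor of the inner ear, read 1634, 1717, 2003 and 3872 in A and 971, 1208, 1447 and 2319 in B, rising in both with A higher on each day (1.53-fold, adjusted p = 0.0269). Its call was lost without day 0, 4 or 9 (adjusted p = 0.0976, 0.0845 and 0.0579), and a second probe set differed by -0.30. Notch2, a Notch receptor, was higher in A by 1 probe set (1.38 ± 0.32, adjusted p = 0.0187, with 0.0519 without day 0 and 0.0623 without day 2), while its 3 others differed by 0.40, -0.05 and -0.61 and were not called. Zfpm1, a cofactor of GATA factors, was higher in A at 1.29 ± 0.25 by 1 probe set, with the other at 0.17. The list's summed intensity was 8656 to 16877 in A and 6766 to 12967 in B. Sox2, Gjb2 and Gjb6 were among its 11 genes that did not pass the filter.

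Mesenchymal markers had 6 of 22 probe sets higher in A and 2 lower, with a median of 0.24 (3 and 1 without day 0) and a summed intensity of 44377 to 65353 in A and 25621 to 30692 in B. After quantile normalization these sums were 34044 to 42448 in A and 30259 to 42823 in B and overlapped. S100a6, a calcium-binding protein of fibroblasts, was 2956, 3084, 2698 and 2268 in A and 902, 1273, 1067 and 803 in B on design b (2.74-fold, adjusted p = 0.00295), and its brighter probe set on design a differed by 1.36 as deposited and by -0.02 after quantile normalization. Vim, vimentin, and Cdh2, N-cadherin, were lower in A at -0.97 and -1.07, and Twist1, a factor of mesenchymal fate, higher at 0.89, and all 3 calls were lost without day 4 and 1 other day or more. Epithelial markers had 1 of 15 called, Krt17, with Cdh1 and Epcam among those that did not pass the filter and a summed intensity of 4625 to 9770 in A and 4544 to 6219 in B.

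Genes of other cell types were called higher in A about as often as all probe sets. Muscle, blood, endothelial and neural markers together had 5 of 46 probe sets higher in A, a share near the 11.1% over all, and 0 lower (5 and 2 after quantile normalization), with a median of 0.25 and a summed intensity of 31347 to 43355 in A and 25190 to 32214 in B (29923 to 39866 and 31879 to 35249 after normalization, with overlap). Of their 88 genes on the arrays 48 did not pass the filter. Lyz2, the lysozyme of myeloid cells, which has a near-identical neighbour in Lyz1, read 3438, 5352, 3319 and 4897 in A and 786, 2242, 1723 and 1856 in B, with no overlap (2.70-fold, adjusted p = 0.00387). Fcer1g, an Fc receptor subunit, was 986, 733, 545 and 528 in A and 165, 147, 195 and 391 in B (3.26-fold, adjusted p = 0.0138, and 0.0581 without day 0). Csf1r, Spi1, Adgre1 and Itgb2, which define macrophages, did not pass the filter. Myog, a regulator of muscle differentiation, was 1158, 1493, 931 and 868 in A and 480, 538, 448 and 315 in B (2.49-fold, adjusted p = 0.00457), while Myod1 differed by 0.95 and was not called (adjusted p = 0.0778), and Myf5, Myf6, Acta1 and Ryr1 did not pass the filter. Of endothelial markers 0 of 4 were called (the largest was Cd34 at 0.59, adjusted p = 0.177), and Cdh5 and Pecam1 did not pass the filter. Whether these calls had a part in the other results was not tested.

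Of the sex chromosome genes only Sry, the testis-determining gene of the Y chromosome, was above the floor on enough arrays. It read 922, 1184, 643 and 600 in A and 154, 177, 272 and 566 in B, so that B at day 9 was close to A while B at days 0 and 2 was below the floor of 198. The difference of 1.53 ± 0.37 (adjusted p = 0.0216) was lost without day 0 (adjusted p = 0.0976) and without day 2 (adjusted p = 0.0708). This gene rests on 1 probe set, and whether both experiments held the same cells was not tested further.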

How the data were processed

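RNA of UB/OC-1 cells was measured on short-oligonucleotide arrays of designs a (6584 probe sets) and b (6595). The deposited values are 1 intensity per probe set and array on a linear scale, and the values show that the authors scaled each array to a common trimmed mean. Sources used here name no array software, background correction or scaling target. The number of arrays limits the precision. Groups were read from the sample titles, and no column of values belonged to no sample.

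The members of the comparison and the gene lists were chosen with earlier results of these data known. In each design, values under a floor, the 75th percentile of the size of all negative intensities, were set to the floor, and log2 was taken. A probe set was kept where 2 or more of its 8 arrays exceeded the floor, and the array maker's controls (61 per design) were left out. Experiment A was compared with B in R 4.3.3 with limma 3.58.1 (lmFit, eBayes with trend and robust), with day as a block, in each design apart. P-values are two-sided and adjusted by Benjamini-Hochberg over both designs together, with a threshold of 0.05, and a probe set that passed is said to be called. Every adjusted p in the text is from this limma fit. The fit left 3 residual degrees of freedom before moderation. The fit was tested on simulated data.

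Days pair the arrays by their labels. Deviations from the experiment's mean correlated between A and B of the same day with r of 0.104 to 0.725 over 8 pairs, and 5 of 8 correlated best with their own day. On both designs, A at day 9 correlated more with B at day 4 (0.444 on a and 0.455 on b) than with B at day 9 (0.195 and 0.245).

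Gene symbols come from GEO's platform annotation: 5541 probe sets of design a and 2001 of b have 1 symbol, 197 and 27 have several, and 785 and 4506 have none. Genes were named by a rule: the 15 largest differences in each direction among called probe sets with 1 symbol and 1 sign on all 4 days, the called members of each list with the smallest adjusted p (at most 4, or the largest differences where fewer than 2 were called), the 5 smallest p in each direction of the temperature test, and sex chromosome genes. Other list members and genes with several called probe sets were added after their values were seen. Promoter windows come from RefSeq (GRCm38.p6).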

Additional observations from a re-analysis of the deposited data

Results flagged for a closer look

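For each of 111 called probe sets named by rule and 27 gene lists, it was examined whether 1 of the 4 day differences stood far from the other 3. This was so for 6, and chance gives about 1 in 20. Caprin1, an RNA-binding protein gene, had a difference of -2.95 at day 2, where the nearest other day was -1.36. Hif1a, of the low oxygen response, had -0.14 at day 2, with the nearest at -2.06. Scarb2, a lysosomal membrane receptor gene, had 1.98 at day 0, with the nearest at 0.96. Actg1 had 1.23 at day 0, with the nearest at 0.66. The median of the list of metallothioneins, iron and antioxidant genes was 0.13 at day 9, with the nearest at 0. The median of the growth factor and TGF-beta list was 0.010 at day 4, with the other days at 0.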

How the results depend on the processing

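The count of 1361 calls was 660 without the replicate block (the pairing by day, 653 of them shared with the 1361) and 2490 with all 16 arrays of a design and a spline in day. It ranged from 538 to 1996 with 1 day left out, and from 1025 to 1684 under the other 10 alternatives. The share of calls higher in A was 55.8%, against 48.2% after quantile normalization, 47.2% after median centring and 43.7% after cyclic loess. Cyclic loess and the filter for all 8 arrays above the floor were chosen after seeing the data. The 168 calls on gene lists became 58 without the replicate block, 258 with the spline, and 70 to 221 with 1 day left out. The temperature test gave 0 calls, and 1 with the spline, an unnamed probe set (2.33, adjusted p = 0.0197 in limma), with 86 to 748 at an unadjusted p under 0.05 over the alternatives. It could not be run without day 0. The 158 steady 2-fold differences became 328 with the lower floor, 57 with the higher floor, 257 on the arcsinh scale, and 208 to 331 with 1 day left out. Signs turned for 3 bright shared probe sets on design b: Ftl1 to -0.10, Actg1 to -0.24 and Cfl1 to -0.14 after quantile normalization, and Actg1 to -0.034 and Cfl1 to -0.053 after cyclic loess. The cause was not tested. Of 116 probe sets named by rule, 51 kept direction and side of the threshold under all 16 alternatives in which they could be tested, and 41 lost their call without the block. Dim signals limit 60 of the probe sets higher in A and 48 of those lower, where all 4 arrays of the dimmer experiment were at the floor.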
